A study of Mus musculus with 12 samples.

Results

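The genes described here are 10 members of the YAP, TEAD and Hippo pathway, namely the transcriptional coactivators Yap1 and Wwtr1 (the latter encoding TAZ), the DNA-binding factors Tead1 and Tead4, the target genes Ccn1, Ccn2 and Ankrd1, and the feedback regulators Lats2, Amotl2 and Ajuba. They were taken by name and matched to Ensembl identifiers by symbol. All 10 were found among the 16386 genes of the table for PSC4 cells and among the 15309 genes of the table for KPC4 cells, and all 10 had enough counts to be tested in both.

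The Hippo pathway is a kinase cascade that restrains growth. Its upstream kinases activate LATS kinases, which phosphorylate YAP and TAZ and keep them in the cytoplasm, where they are degraded. When the cascade is off, for example in spread cells on a stiff matrix, YAP and TAZ enter the nucleus, bind TEAD factors and switch on target genes. Several of these targets, LATS2 and angiomotin-like 2 among them, in turn restrain YAP. In the pancreas the pathway is best known for the activation of stellate cells into matrix-producing fibroblasts and for the growth of tumour cells. YAP and TAZ are regulated largely by phosphorylation and location, which RNA levels do not measure.

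RNA was sequenced from 12 cultures of 2 mouse lines in a transfer of conditioned medium. PSC4 cells are pancreatic stellate cells and KPC4 cells are pancreatic cancer cells, both kept as murine lines. In the Control-SU and Gem-SU groups, PSC4 cells spent 24 h in medium from KPC4 cells that had been given vehicle or 10 µM gemcitabine, a nucleoside analogue used as chemotherapy, for 6 h, then washed and left in starvation medium for 14 h. In the Control-PSC-SU and Gem-PSC-SU groups, KPC4 cells spent 24 h in medium from PSC4 cells that had first been exposed to either of these supernatants (6 h), and which, after a wash, conditioned starvation medium over 18 h. Each group had 3 biological replicates, all recipient cells received conditioned starvation medium, and no KPC4 culture that was sequenced had itself been given the drug directly.

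Library totals lay between 29559414 and 38138356 counts in PSC4 and between 26354328 and 34744150 in KPC4. Of 12 stellate or mesenchymal markers, PSC4 had 10 at 1 CPM (a gene's count scaled to a fixed library total) or more in every library, while Epcam and Cdh1, defining markers of epithelium, were not listed in its table and Krt8 and Krt18 stayed under 1 CPM. Of the 10 epithelial markers 6 were listed in PSC4 and 2 reached 1 CPM in every library, Muc1 at 5.64 to 12.7 CPM and Krt19 at 2.43 to 3.69 CPM with Control-SU and 6.71 to 9.15 CPM with Gem-SU. The epithelial sum was 15.6 to 16.3 CPM with Control-SU and 16.1 to 22.3 CPM with Gem-SU. KPC4 had 8 of 10 epithelial markers at that level, with Krt8 between 2218 and 3299 CPM, and it also had Vim between 1700 and 2792 CPM. The summed stellate markers of PSC4 lay between 7723 and 8814 CPM with Control-SU and between 2453 and 3704 CPM with Gem-SU, without overlap. Most of that sum came from Vim, Col1a1, Col3a1 and Pdgfra, each lower in every Gem-SU library, whereas Acta2, a marker of activated stellate cells, stood at 11.9 to 17.9 CPM with Control-SU and at 17.3 to 37.4 CPM with Gem-SU. The 4 endothelial markers of PSC4 summed to 0.616 to 1.44 CPM and to 2.73 to 4.87 CPM, also without overlap. The part of these shifts in the results below was not tested. The summed epithelial markers of KPC4 overlapped between its groups (6042 to 7510 CPM and 5593 to 7530 CPM), while its summed stellate markers, 7 of 12 listed, did not (2427 to 2825 CPM and 1716 to 2307 CPM). Nearly all of that stellate sum was Vim, at 2401 to 2792 CPM with Control-PSC-SU and 1700 to 2273 CPM with Gem-PSC-SU. Col1a1 and Col3a1 overlapped between the KPC4 groups. From bulk RNA, fewer cells with a transcript and less of it per cell cannot be told apart.

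The sequences that TEAD factors are known to bind contain GGAATG, or CATTCC on the other strand. Promoter windows of 300 bases, from 250 before to 50 after the start of transcription, were read from RefSeq (GRCm38.p6) for Yap1, Wwtr1, Ccn1, Ankrd1, Lats2, Amotl2 and Ajuba. Each of these 7 genes had at least 1 window with the motif, searched on both strands, against 16.6% of the 27025 genes with a window of that length (14.7% of 32851 windows). Tead1, Tead4 and Ccn2 were not searched here. Ankrd1 and Ajuba each had 2 copies in their window, and of the 2 windows of Lats2 the second had 0. A match describes these letters and does not show binding. Below are the windows of Ccn1 and Ankrd1, chosen because both are widely used as readouts of YAP and TEAD, and Ccn1 rose in PSC4 while Ankrd1 did not pass the test. Both lie on the minus strand, Ccn1 at chr3:145649936-145650235 and Ankrd1 at chr19:36119795-36120094. They are written 5′ to 3′ along the gene, and capitals mark the motif on either strand. It starts 103 bases before the start site in Ccn1, and 210 and 123 bases before it in Ankrd1.
Ccn1: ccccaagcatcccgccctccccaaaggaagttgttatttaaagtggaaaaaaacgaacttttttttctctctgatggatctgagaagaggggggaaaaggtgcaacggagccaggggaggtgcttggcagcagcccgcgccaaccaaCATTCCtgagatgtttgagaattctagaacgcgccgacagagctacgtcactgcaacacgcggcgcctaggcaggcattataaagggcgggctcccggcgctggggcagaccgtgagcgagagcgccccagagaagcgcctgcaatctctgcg
Ankrd1: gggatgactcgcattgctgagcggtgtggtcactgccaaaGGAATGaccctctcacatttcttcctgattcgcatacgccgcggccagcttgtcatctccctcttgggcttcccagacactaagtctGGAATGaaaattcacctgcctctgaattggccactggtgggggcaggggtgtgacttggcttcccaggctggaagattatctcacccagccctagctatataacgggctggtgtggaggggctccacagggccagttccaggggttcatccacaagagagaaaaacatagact

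The question in PSC4 was what changes in stellate cells when the tumour cells that conditioned their medium had received gemcitabine in place of vehicle. Ccn1 and Ccn2, both encoding secreted matricellular proteins and both classical YAP and TEAD targets, rose 6.40-fold and 5.39-fold, and the kinase gene Lats2 rose 1.45-fold. Yap1 fell 1.44-fold. Ankrd1, Amotl2, Ajuba, Wwtr1, Tead1 and Tead4 did not pass the test. Thus 4 of 10 genes passed an adjusted p of 0.05, where 46.3% of all 13347 genes tested passed. By direction, 3 of 10 rose against a background of 24.3%, and 1 of 10 fell against 22%. The groups did not overlap for 5 of the 10 genes against 56.4% of all genes, so in number the set stood close to the background, and its median log2 fold change was 0.02 against 0.00 (-0.003) over all genes.

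**Figure D1:**
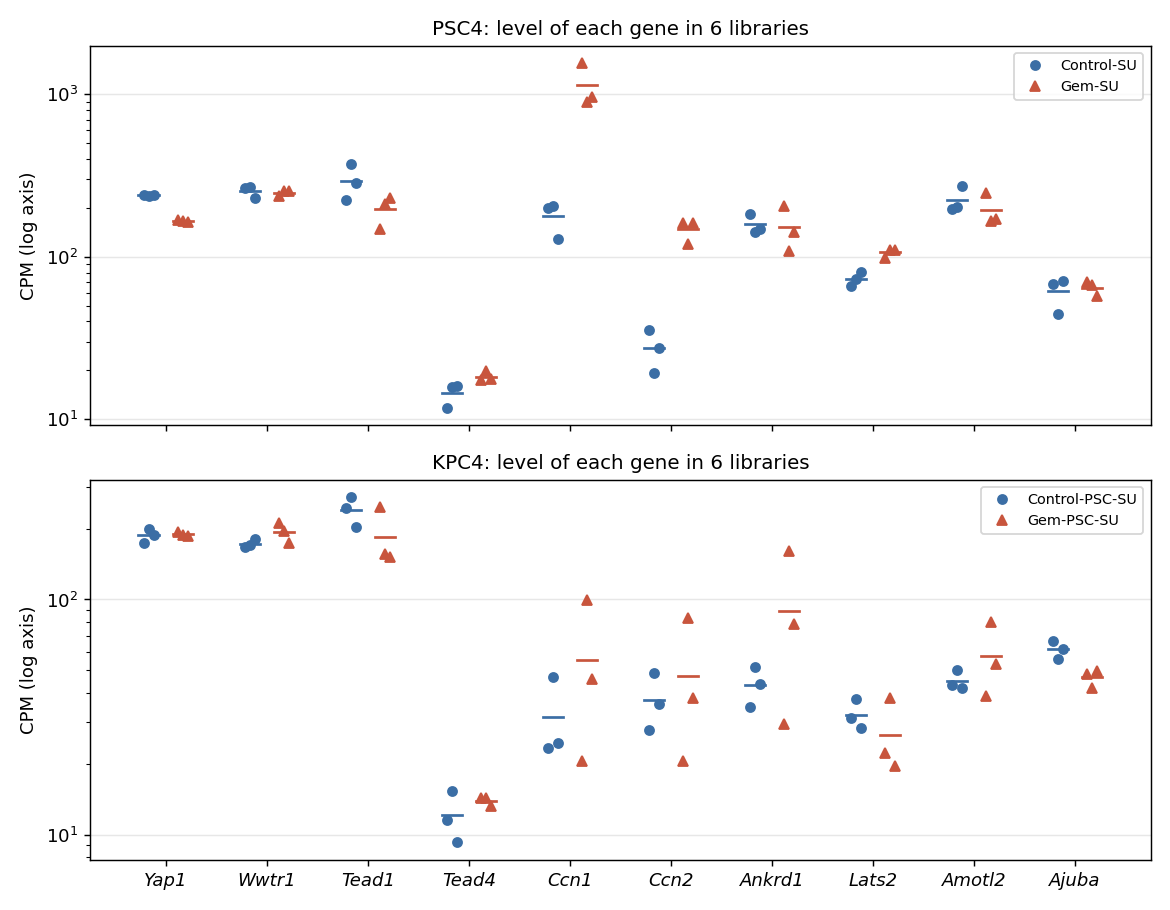
Level of each gene in CPM (log axis) in the 6 PSC4 libraries (top) and the 6 KPC4 libraries (bottom). Circles are libraries of the control groups, triangles those of the Gem groups, and short lines the group means. In PSC4 the Gem-SU libraries of Ccn1 lie between 903 and 1556 CPM, above control libraries of 129 to 205 CPM, while in KPC4 the groups of Ccn1, Ccn2 and Ankrd1 overlap.

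Among the coactivators, Yap1 stood at 240.2, 236.6 and 240.5 CPM with Control-SU and at 168, 165 and 163 CPM with Gem-SU. The libraries of each group lay within a few CPM of each other, and the groups did not overlap. The fitted log2 fold change was -0.53, standard error 0.13 (quasi-likelihood test of edgeR, Benjamini-Hochberg adjusted p = 0.00992). The call was lost without Gem-SU replicate 2 (log2 fold change -0.52, adjusted p = 0.0576), and over all alternatives the adjusted p ranged from 7.34e-05 to 0.0576. Wwtr1 stood at 265, 268 and 230 CPM with Control-SU and at 236, 255 and 254 CPM with Gem-SU, with overlapping groups. Its log2 fold change of -0.04 had a 95% interval from -0.36 to 0.29. Scaled to gene length, Yap1 made up 32.7% ± 2.04 (SD, n = 3) of the summed Yap1 and Wwtr1 level in control libraries and 25.6% ± 1.10 with Gem-SU, so Wwtr1 was the more abundant transcript of the pair in both groups.

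The TEAD factors bring YAP and TAZ to DNA. Tead1 stood at 222, 372 and 283 CPM in control libraries and at 148, 210.1 and 231 CPM with Gem-SU. The groups overlapped by 1 library of each, and the log2 fold change of -0.57 (standard error 0.24) did not pass (edgeR adjusted p = 0.0764, between 0.00693 and 0.219 over its alternatives). It passed with DESeq2 (adjusted p = 0.0464) and without Control-SU replicate 1 (adjusted p = 0.0383). The authors' deposited DESeq2 comparison did not call Tead1, with a log2 fold change of -0.42 and an adjusted p of 0.36. Tead4 stood at 11.7, 15.9 and 16.0 CPM in control libraries and at 17.4, 19.8 and 17.6 CPM with Gem-SU. Its groups did not overlap, but the log2 fold change of 0.33 (standard error 0.19) did not pass (edgeR adjusted p = 0.183).

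The 3 target genes parted. Ccn1 stood at 201, 205 and 129 CPM in control libraries and at 1556, 903 and 967 CPM with Gem-SU. Every Gem-SU library exceeded every control library more than 4-fold, and replicate 1 was the highest. Its log2 fold change was 2.68, standard error 0.28 (edgeR adjusted p = 2.43e-04), and 2.22% of all genes tested had a higher one. Ccn2 stood at 35.4, 19.2 and 27.5 CPM in control libraries and at 161, 120 and 162 CPM with Gem-SU. The lowest Gem-SU library was again well above the highest control library, and the log2 fold change was 2.43, standard error 0.24 (edgeR adjusted p = 1.78e-04). Both calls held under all 12 alternatives run for each gene. Ankrd1 encodes a muscle ankyrin repeat protein of the nucleus and sarcomere. It stood at 183, 143 and 149 CPM in control libraries and at 206, 109 and 143 CPM with Gem-SU, with groups that overlapped fully. Its log2 fold change of -0.05 had a 95% interval from -0.58 to 0.47, which lies wholly below the intervals of Ccn1 (2.03 to 3.33) and Ccn2 (1.88 to 2.98).

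Of the feedback regulators, Lats2, which encodes a kinase that phosphorylates YAP and TAZ, stood at 65.8, 73.1 and 81.0 CPM in control libraries and at 98.8, 110.4 and 110.4 CPM with Gem-SU. The groups did not overlap, and the log2 fold change was 0.54, standard error 0.14 (edgeR adjusted p = 0.0126, between 0.00262 and 0.088 over its alternatives). The call was lost without Gem-SU replicate 2 (adjusted p = 0.0593) and in one fit over all libraries (adjusted p = 0.088). The authors' deposited table lists the symbol Lats2 in 2 rows, with a log2 fold change of 0.35 and an adjusted p of 0.143 in one and -20.8 with no p in the other, so that table did not call it. Amotl2, which encodes an angiomotin that binds YAP at cell junctions, stood at 198, 204 and 271 CPM in control libraries and at 246, 167 and 172 CPM with Gem-SU. Ajuba, which encodes a LIM protein that inhibits LATS kinases, stood at 68.0, 44.7 and 71.2 CPM and at 69.6, 67.5 and 57.0 CPM. Both had overlapping groups, with log2 fold changes of -0.20 (95% interval -0.67 to 0.27) and 0.08 (-0.37 to 0.53). For the other called genes the authors' deposited table gave log2 fold changes of -0.59 for Yap1, 2.64 for Ccn1 and 2.38 for Ccn2, all with an adjusted p under its threshold.

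In KPC4 the question was how tumour cells differ after medium from stellate cells that Gem-SU, as opposed to Control-SU, had reached. None of the 10 genes passed: 0 of 10 in edgeR's quasi-likelihood test, where 0% of all 13236 genes passed, and 0 of 10 in DESeq2. For DESeq2 the share of all genes was not computed. At an unadjusted p under 0.05 edgeR gave 1 of the 10, Ajuba, against 17% of all genes. The replicate numbers went with shared deviations in KPC4, and in a fit with replicate blocks 8.85% of all genes passed but still 0 of the 10. The groups did not overlap for 1 of the 10 genes against 22.8% of all genes. The median log2 fold change of the 10 genes was 0.19 against -0.02 over all genes.

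Yap1 stood at 173, 199 and 189 CPM with Control-PSC-SU and at 193, 189 and 185 CPM with Gem-PSC-SU. The groups overlapped, and the log2 fold change of 0.01 had a 95% interval from -0.33 to 0.36. Wwtr1 stood at 166, 169.9 and 181 CPM and at 211, 196 and 174 CPM, with a log2 fold change of 0.17 (95% interval -0.19 to 0.52). Tead1 stood at 245, 271 and 203 CPM and at 246, 157 and 152 CPM, so that Gem-PSC-SU replicate 1 lay among the control libraries and the other two below them. Its log2 fold change was -0.37, standard error 0.23 (edgeR adjusted p = 0.426). Tead4 was low in both groups, at 9.27 to 15.4 CPM and 13.2 to 14.3 CPM.

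Ccn1, Ccn2 and Ankrd1 shared a pattern across the KPC4 libraries. Ccn1 stood at 23.4, 46.6 and 24.6 CPM with Control-PSC-SU and at 20.6, 99.8 and 45.9 CPM with Gem-PSC-SU. Ccn2 stood at 27.8, 48.5 and 35.9 CPM and at 20.6, 83.3 and 38.2 CPM. Ankrd1 stood at 34.9, 51.7 and 43.6 CPM and at 29.5, 160.5 and 78.6 CPM. For all 3 genes replicate 2 was the highest library in both groups, and Gem-PSC-SU replicate 1 was the lowest of all 6 libraries. The same held for Igfbp3 and Stk3, genes of the lists described below. The share of all genes with this order was not computed. Over all genes, Gem-PSC-SU replicates 1 and 2 differed more than any other pair of replicate libraries (chi-square per degree of freedom 240.7).

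Set against the control library of the same number, the log2 difference of Ankrd1 was -0.25 in replicate 1, 1.64 in replicate 2 and 0.85 in replicate 3. For Ccn1 it was -0.19, 1.10 and 0.90, and for Ccn2 it was -0.43, 0.78 and 0.09. The 3 genes thus differed in the same direction within each replicate number, lower in the first and higher in the other two. Amotl2 had the same signs (-0.16, 0.68 and 0.34), so the pattern was not particular to these 3 genes. Fitted over the groups, the log2 fold change was 1.05 ± 0.50 (SE) for Ankrd1, 0.81 ± 0.52 (SE) for Ccn1 and 0.34 ± 0.45 (SE) for Ccn2, with edgeR adjusted p-values of 0.327, 0.442 and 0.721. Without Gem-PSC-SU replicate 1, Ankrd1 passed with a log2 fold change of 1.46 (edgeR adjusted p = 0.0298, from that to 0.817 over its alternatives). Without Gem-PSC-SU replicate 2, the value was 0.32 for Ankrd1, 0.07 for Ccn1 and -0.35 for Ccn2, so each of the 3 values moved with single libraries.

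**Figure D2:**
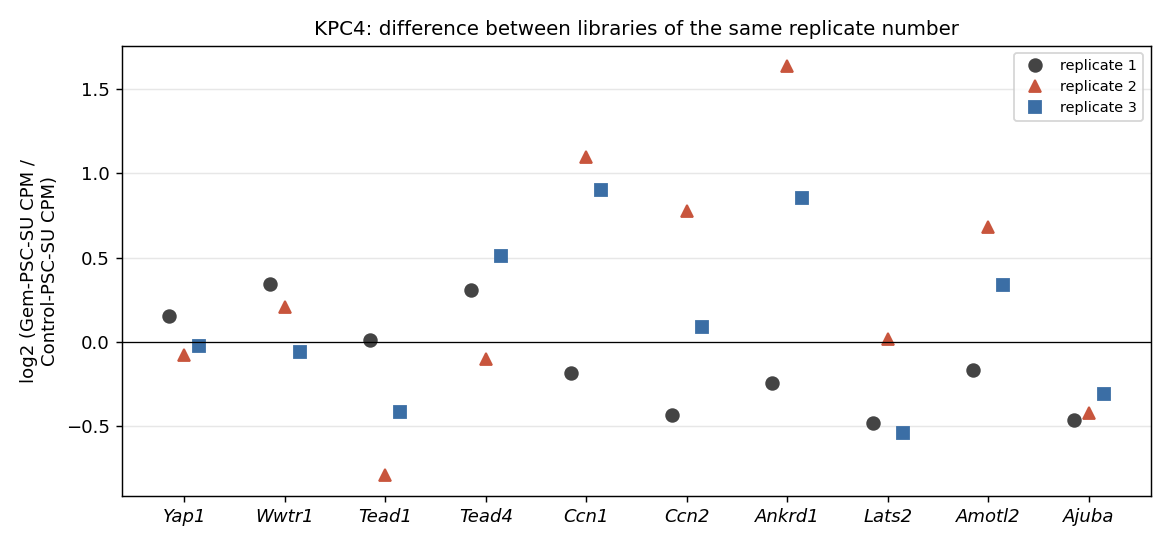
Log2 ratio of the CPM in each Gem-PSC-SU library of KPC4 to that in the Control-PSC-SU library of the same replicate number, for the 10 genes. Ccn1, Ccn2, Ankrd1 and Amotl2 lie below 0 in replicate 1 (circles) and above 0 in replicates 2 (triangles) and 3 (squares), and Ajuba lies below 0 in all 3.

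Among the feedback regulators in KPC4, Ajuba stood at 66.7, 56.1 and 61.5 CPM with Control-PSC-SU and at 48.3, 41.9 and 49.6 CPM with Gem-PSC-SU. It was the only one of the 10 genes whose KPC4 groups did not overlap, and it was lower in each of the 3 replicate numbers. The log2 fold change of -0.40 (standard error 0.17) did not pass (edgeR adjusted p = 0.288, and 0.0984 with the replicate block). Lats2 stood at 31.2, 37.6 and 28.5 CPM and at 22.4, 37.96 and 19.6 CPM, and Amotl2 at 43.4, 50.1 and 42.0 CPM and at 38.7, 80.3 and 53.0 CPM. Both had overlapping groups and log2 fold changes of -0.28 (95% interval -0.91 to 0.34) and 0.35 (-0.26 to 0.95).

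**Figure D3:**
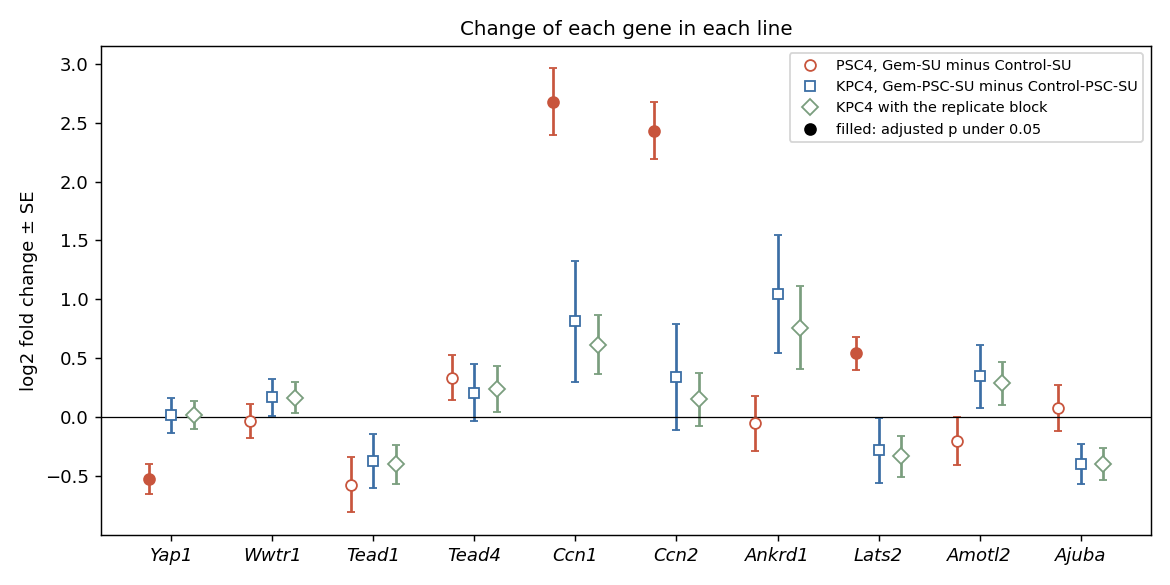
Log2 fold change of each gene with its standard error in PSC4 (circles), in KPC4 (squares) and in KPC4 fitted with replicate blocks (diamonds). Filled symbols have an adjusted p under 0.05, which holds in PSC4 for Yap1 at -0.53, Lats2 at 0.54, Ccn1 at 2.68 and Ccn2 at 2.43, and for no gene in KPC4.

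Whether the change differed between the lines was tested as an interaction in one fit of all 12 libraries, as the change in PSC4 minus that in KPC4. The median of this difference over all genes was -0.094. Since the lines also received different media, the effect of line and that of the step of the transfer cannot be told apart. Ccn2 differed by 2.05 with a standard error of 0.56 (edgeR adjusted p = 0.0359), and it was the 1 of 10 genes to pass, where 9.85% of 13632 genes did. With single libraries left out in turn the call held in 4 of 12 fits and was lost without PSC4 Control-SU replicate 2 or 3, any Gem-SU replicate, Control-PSC-SU replicate 2 or 3, or Gem-PSC-SU replicate 3, and its adjusted p ranged from 3.62e-04 to 0.092 over all alternatives. Ccn1 differed by 1.83 (standard error 0.64) and Yap1 by -0.59 (standard error 0.19), with edgeR adjusted p-values of 0.0863 and 0.0615. Replicate blocks in KPC4 only were added after seeing the data. The numbers were taken to pair libraries there from the values, not the labels. With these blocks 4 of the 10 genes passed against 15.7% of all genes. These were Ccn2 with a difference of 2.23, Ccn1 with 2.02 (edgeR adjusted p = 0.00769), Lats2 with 0.82 (edgeR adjusted p = 0.0228) and Yap1 with -0.60 (edgeR adjusted p = 0.042). Ankrd1 differed by -1.14 without the block and by -0.86 with it, and passed in neither fit.

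The control groups showed how the lines differ in these genes in medium that traced back to vehicle, again with line and medium inseparable. Of the 10 genes 6 passed, against 42.9% of all genes, and all 6 were higher in PSC4. Ccn1 was 5.60-fold higher (log2 difference 2.49, standard error 0.47), Amotl2 4.94-fold (2.30, standard error 0.26), Ankrd1 3.63-fold (1.86, standard error 0.44) and Lats2 2.24-fold (1.17, standard error 0.22), and these 4 calls held under all 16 alternatives. Wwtr1 was 1.47-fold higher (edgeR adjusted p = 0.0064), a call lost without KPC4 Control-PSC-SU replicate 1 (adjusted p = 0.0517). Yap1 was 1.27-fold higher with an adjusted p at the threshold (0.05), and kept the call in 7 of 16 alternatives. Ccn2 was the target that did not follow, at -0.46 (95% interval -1.31 to 0.39). Tead1, Tead4 and Ajuba did not pass, with log2 differences of 0.27, 0.26 and -0.01.

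To set the genes against each other within a line, levels were divided by the length of each gene's exons (CPM per kb). In control PSC4 libraries Ccn1 was highest at 88.3 ± 21.1, followed by Ankrd1 at 54.9 ± 7.499, Wwtr1 at 53.3 ± 4.47, Amotl2 at 35.7 ± 6.46, Yap1 at 25.8 ± 0.23, Tead1 at 21.6 ± 5.55, Ajuba at 16.8 ± 3.97, Lats2 at 10.5 ± 1.09, Ccn2 at 9.56 ± 2.84 and Tead4 at 4.04 ± 0.68 (CPM per kb, SD, n = 3 each). Ankrd1 and Wwtr1, Yap1 and Tead1, Tead1 and Ajuba, and Lats2 and Ccn2 lay within an SD of each other. With Gem-SU, Ccn1 reached 566 ± 178 and Ccn2 51.5 ± 8.36 CPM per kb, which placed Ccn2 beside Ankrd1 (52.9 ± 16.98) and Wwtr1 (52.0 ± 2.19). In control KPC4 libraries Wwtr1 led at 36.1 ± 1.63 CPM per kb, ahead of Yap1 at 20.2 ± 1.40. Tead1, Ajuba, Ccn1, Ankrd1 and Ccn2 then followed between 17.7 and 13.1 CPM per kb, neighbours within their spread, with Amotl2 at 7.18 ± 0.68, Lats2 at 4.65 ± 0.67 and Tead4 at 3.35 ± 0.85 at the end.

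Other genes of the pathway were read from a list of 30 TEADs, cofactors, kinases and upstream regulators. In PSC4 6 of 30 rose, against 24.3% of all genes, 4 of 30 fell, against 22%, and 20 did not pass. The median log2 fold change was 0.08 against -0.003 over all genes, so these counts did not exceed the background. Tead2, another TEAD factor, stood at 122, 105 and 125 CPM in control libraries and at 57.9, 33.2 and 31.1 CPM with Gem-SU. Its groups did not overlap, and it fell by 1.52 on the log2 scale (edgeR adjusted p = 0.0014), the smallest p of the list. Per kb of exon, Tead2 made up 43.9% ± 6.19 of the 4 TEAD transcripts in control libraries and 25.2% ± 8.24 with Gem-SU, while Tead4 made up 7.17% ± 0.79 and 15.2% ± 1.28 (SD, n = 3 each). A share also moves with the other TEADs, and the level of Tead4 itself did not pass. Tead3 went from 10.8% ± 2.07 to 16.2% ± 4.17. KPC4 shifted alike, from 44.35% ± 10.4 to 32.65% ± 4.39 for Tead2 and from 8.285% ± 2.65 to 13.98% ± 2.96 for Tead4.

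Rassf1, which encodes a scaffold that binds the upstream kinases, stood at 22.7 CPM ± 9.08 in control libraries and rose to 64.3 CPM ± 10.6 with Gem-SU (SD, n = 3 each). The giant cadherin gene Fat1 rose from 368 CPM ± 69.6 to 1011 CPM ± 310.5. Vgll4, whose product competes with YAP for TEAD, rose from 40.9 CPM ± 7.53 to 71.7 CPM ± 6.72. Their log2 fold changes were 1.502, 1.46 and 0.81, and Strn3, a subunit of a phosphatase complex that counters the upstream kinases, rose by 0.83. Sav1, the scaffold of those kinases, fell by 0.58 on the log2 scale. The other called genes of the list were Stk4 (0.805) and Mob1b (0.59), which rose, and Fat4 (-1.13) and Amotl1 (-0.52), which fell, given as log2 fold changes. Among the named genes, those that rose and those that fell each included genes of opposite known effect on YAP. Of the named genes that rose, only Strn3 counters the upstream kinases. Of those that fell, Sav1 is the scaffold of these kinases, while Tead2 is a TEAD factor. A direction of the pathway as a whole was not tested.

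In KPC4 0 of the 28 genes of that list that could be tested passed in edgeR, where 0% of all 13236 genes passed. An unadjusted p under 0.05 was reached by 4 of them, against 17% of all genes. Vgll3 was too low to test, and Dchs1 was not listed in KPC4. Rassf1 and Tead2 had the smallest p, with log2 fold changes of 1.39 and -0.96 and groups that did not overlap, the same signs as in PSC4. For Tead2 the groups nearly touched, at 58.6 CPM in Control-PSC-SU replicate 2 and 58.4 CPM in Gem-PSC-SU replicate 1. With the replicate block Rassf1 and Tead2 both passed (edgeR adjusted p = 0.0214 and 0.00752), and both passed in DESeq2 (adjusted p = 6.53e-04 and 0.0478). With the block, 1 of the 28 genes was called higher and 1 lower, where 8.85% of all genes passed. The share of all genes passing in DESeq2 was not computed. Over all alternatives the adjusted p ranged from 6.53e-04 to 0.509 for Rassf1 and from 0.00752 to 0.555 for Tead2. Next by p were Frmd6 (0.55), Taok2 (0.43), Btrc (-0.44) and Strn3 (0.56), given as log2 fold changes, and none of these passed under any alternative.

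A second list held the other 17 genes of a published signature of 22 YAP and TAZ targets, of which Ccn1, Ccn2, Ankrd1, Lats2 and Amotl2 are the remaining 5. In PSC4 3 of 17 rose, against 24.3% of all genes, 6 of 17 fell, against 22%, and 8 did not pass. The median log2 fold change was -0.20 against -0.003 over all genes. Ccdc80, which encodes a secreted matrix protein, stood at 264, 330.4 and 297 CPM in control libraries and at 64.0, 43.0 and 40.1 CPM with Gem-SU, and fell by 2.60 on the log2 scale (edgeR adjusted p = 8.30e-05). Nt5e, the ectonucleotidase CD73, fell by 2.38, the forkhead gene Foxf2 by 1.46 and the RNA-binding protein gene Rbms3 by 1.08. The level of Nt5e was low, at 5.88 to 8.97 CPM with Control-SU and 1.19 to 1.51 CPM with Gem-SU. Nuak2, encoding a kinase related to AMPK, rose by 1.43 on the log2 scale, and Ptpn14, encoding a phosphatase that restrains YAP, rose by 1.23. Of the 5 signature genes described above, Ccn1, Ccn2 and Lats2 rose, while Ankrd1 and Amotl2 did not pass.

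In KPC4 0 of 17 signature genes passed in edgeR, where 0% of all 13236 genes passed. An unadjusted p under 0.05 was reached by 2 of them, against 17% of all genes. The median log2 fold change was -0.07 against -0.02 over all genes. F3, which encodes tissue factor, stood at 85.9, 132.5 and 124 CPM with Control-PSC-SU and at 180.2, 505 and 344 CPM with Gem-PSC-SU. Its groups did not overlap and its log2 fold change was 1.59 (edgeR adjusted p = 0.12, between 6.54e-04 and 0.509 over its alternatives). It passed with the replicate block (1.49, edgeR adjusted p = 0.00356) and in DESeq2 (adjusted p = 6.54e-04). With the block, 1 of the 17 signature genes was called higher and 0 lower, where 8.85% of all genes passed. The share of all genes passing in DESeq2 was not computed. In PSC4 F3 was lower with Gem-SU, with a log2 fold change of -0.88 (edgeR adjusted p = 0.03). The other genes of this list nearest to the threshold in KPC4 were Arhgef17 (-0.52), Tgfb2 (1.05), Fjx1 (-0.52), Ptpn14 (-0.22) and Gadd45a (0.43), given as log2 fold changes, and none passed under any alternative.

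**Figure D4:**
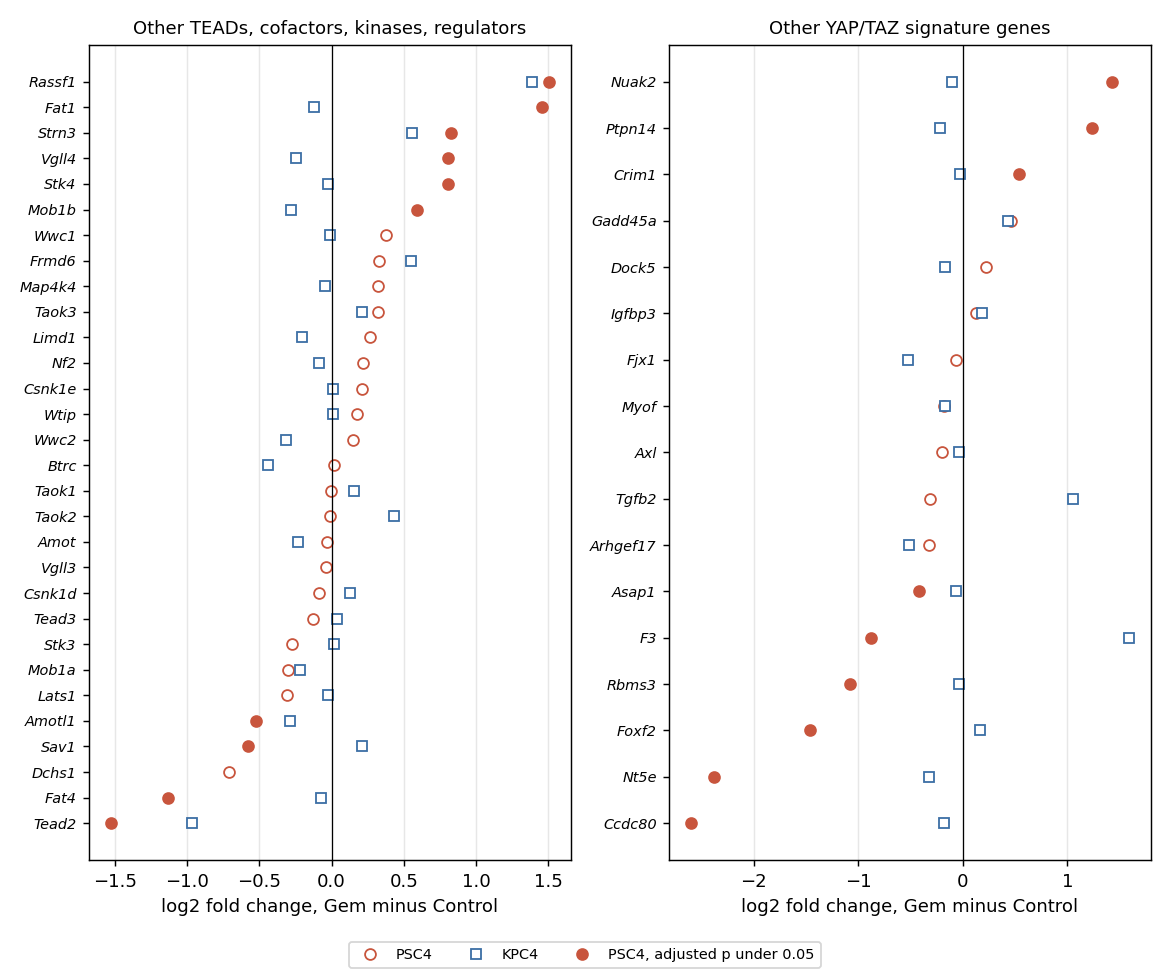
Log2 fold change of the other pathway genes (left) and the other signature genes (right) in PSC4 (circles, filled where the adjusted p is under 0.05) and KPC4 (squares). In PSC4 the signature genes run from Ccdc80 at -2.60 to Nuak2 at 1.43, and in KPC4 F3 at 1.59 and Rassf1 at 1.39 stand farthest right.

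Genes with the most similar course over the 12 libraries were sought by the root mean square difference of log2 CPM, centred within each line, among 12207 genes tested in both. Nearest to Ccn1 were Slc25a33 (0.23), Nt5dc3 (0.26) and Ccne1 (0.33), against a root mean square of 1.12 for Ccn1 itself. Nearest to Ccn2 were Slc25a33 (0.26), Prr5l (0.28) and Polr1e (0.28), against 1.00 for Ccn2 (0.999). Nearest to Ankrd1 were Asna1 (0.25), Dusp14 (0.25) and Dcaf15 (0.29), against 0.61 for Ankrd1. Slc25a33 thus stood nearest to both Ccn1 and Ccn2, and none of the 10 genes was among the 3 nearest to Ccn1, Ccn2 or Ankrd1. Nearest genes were not sought for the other 7.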

How the data were processed

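RNA of 12 cultures was sequenced. For each line the authors deposited raw counts per gene and library. Their deposited comparison tables hold log2 fold changes and each gene's p-value, raw and adjusted. The submitters' processing notes name FastQC, Trim Galore 0.6.10, cutadapt 5.2, Salmon, R 4.5.1 and DESeq2, and the build GRCm39, without their roles. Salmon estimates counts, so whole numbers in the deposited counts may have been rounded. Strand setting, annotation and any low-count filter are not given in the sources used here (smallest row total 0 in PSC4, 11 in KPC4), and overlapping genes are uncertain. 0 columns of per-sample values were unused, and 0 rows named no gene.

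Symbols came from GENCODE M21 and matched 99.7% of identifiers in each table. Exon lengths are the union of GENCODE M21 exons (GRCm38), another build than the authors', so levels per kb are approximate. Each line was fitted alone in edgeR 4.0.16 (R 4.3.3) with filterByExpr, TMM scaling and the robust quasi-likelihood test, Benjamini-Hochberg adjusted over all genes. The interaction and the comparison of control groups used all 12 libraries. CPM is scaled to TMM-adjusted totals within a line, and for markers to plain totals. Standard errors are the log2 fold change divided by the root of F. Replicate libraries differed by more than counting noise (chi-square per degree of freedom at least 30.4). Values rest on at least 277 counts per library for the 10 genes, so the spread between cultures, not depth, limits them.

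Across genes, libraries sharing a number deviated together from their groups with correlations of 0.351, 0.436 and 0.211 in KPC4, and of 0.428, -0.055 and 0.102 in PSC4. All were above 0.1 in KPC4, so the number was taken to pair libraries there only, from the values and not the labels. Alternatives were DESeq2's size factors, no filter, at least 10 counts in every library, DESeq2 1.42.0, the replicate block, one fit over all libraries and leaving out each library. The block in KPC4 only was added after seeing the data. Methods were tested on simulated data. The 10 genes and the lists were chosen with earlier results of these data known. Named list genes are the 6 with the smallest p per list and line, and the 3 nearest genes were named for Ccn1, Ccn2 and Ankrd1. A planned search of the YAP and TAZ proteins was not run. p-values measure the spread between the biological replicates of these cell lines.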

Additional observations from a re-analysis of the deposited data

Results flagged for a closer look

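Each item here passed the interaction over all 12 libraries, and each value is the log2 fold change in PSC4 minus that in KPC4. Only the 10 genes and the named list genes, the 6 with the smallest p per list and line, were considered. Those list genes were thus chosen by their change in the same libraries, which favours passing, so their calls are no independent support. Of all 13632 genes tested, 9.85% passed. Among the 10 genes Ccn2 passed, with a difference of 2.05 (edgeR adjusted p = 0.0359).

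Among the regulators on the first list, Fat1 differed by 1.53 (edgeR adjusted p = 0.0183). Fitted in each line alone, its changes were 1.46 in PSC4 and -0.12 in KPC4, which the joint fit need not match exactly. Vgll4 differed by 1.00 (1.004, edgeR adjusted p = 0.0309) and Sav1 by -0.84 (edgeR adjusted p = 0.0233). The call of Vgll4 held in 11 of 18 alternatives and that of Sav1 in 14 of 18, and Fat1 lost it in 1, without PSC4 Gem-SU replicate 2 (adjusted p = 0.0588).

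Among the signature genes, Ccdc80 differed by -2.47 (edgeR adjusted p = 0.00304), Nt5e by -2.11 (edgeR adjusted p = 0.00944), Foxf2 by -1.68 (edgeR adjusted p = 0.0131) and F3 by -2.51 (edgeR adjusted p = 0.00707). Ptpn14 differed by 1.40 (edgeR adjusted p = 0.00634) and Nuak2 by 1.47 (edgeR adjusted p = 0.0472). The calls of Ccdc80, Nt5e, Foxf2, F3 and Ptpn14 held under all 18 alternatives, and that of Nuak2 under 7 of 18. F3 had opposite signs in the lines, lower in PSC4 and higher in KPC4. Nuak2 was low in KPC4, at 2.13 to 4.17 CPM, and so was Ccdc80, at 2.61 to 6.57 CPM. Nt5e was low in PSC4, at 1.19 to 8.97 CPM.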

How the results depend on the processing

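With one library left out at a time, from 2 to 5 of the 10 genes passed in PSC4 (2 without Gem-SU replicate 2, namely Ccn1 and Ccn2), 0 to 1 in KPC4 and 0 to 3 in the interaction. The interaction count was 1 in the main fit, 3 under DESeq2, 4 with the replicate block within each line and 4 with the replicate block in KPC4 only. Over all genes, 9.85% passed in the main fit and 15.7% with the block in KPC4 only. That share was not computed for the other interaction settings or for the fits with a library left out. In PSC4, where the numbers were not taken to pair the libraries, the replicate block added Tead1 (-0.57, adjusted p = 0.00693). In KPC4 it changed no call among the 10 genes. Directions turned only where the change was not called and one library was left out. Those values ranged in PSC4 from -0.33 to 0.14 for Ankrd1, -0.13 to 0.17 for Ajuba (0.165) and -0.14 to 0.00 for Wwtr1 (0.002), in KPC4 from -0.04 to 0.08 for Yap1 (-0.040 to 0.076) and -0.35 to 0.70 for Ccn2, in the interaction from -0.14 to 0.24 for Tead4 and -0.41 to 0.01 for Tead1 (0.007), and between control groups from -0.19 to 0.12 for Ajuba. The cause of these moves was not tested, beyond fewer samples in the fit.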
